A study of Homo sapiens with 4 samples.

Results

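Negative regulators of mitogen-activated protein kinase (MAPK) signalling were examined in HepG2 cells given berberine. The set was 10 gene symbols, DUSP1, DUSP2, DUSP4, DUSP5, DUSP6, DUSP8, DUSP10, SPRY1, SPRY2 and SPRY4, and its members were the array probes annotated with one of them. A probe was found for 7 genes, 1 probe each, out of 17778 named genes in all. The 3 Sprouty genes had no probe under those symbols and were not analysed here. HepG2 is an established human hepatocellular carcinoma line, and berberine is a plant alkaloid. Total RNA was measured on 4 one-colour arrays, 2 from cells treated with 26.95 µM berberine for 24 hours and 2 from untreated control cells. The samples' description field differs from these labels. It names an MDI-induced differentiation over 48 hours for all 4 samples, with 13.47 µM berberine in the treated ones, and this conflict was not resolved. The labels do not say whether the 2 replicates of a group were separate cultures. The p-values below therefore reflect only how far these arrays differ, and that spread may be technical.

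The MAPKs ERK, p38 and JNK are switched on when a threonine and a tyrosine in their activation loop are phosphorylated. Dual-specificity phosphatases (DUSPs) of the MAPK phosphatase type remove both phosphates, and Sprouty proteins act upstream, between receptor tyrosine kinases and RAF. Many of these genes are themselves transcribed when a MAPK is active, which makes them feedback brakes. DUSP1, DUSP2, DUSP4 and DUSP5 encode inducible nuclear enzymes, DUSP6 a cytoplasmic enzyme selective for ERK, and DUSP8 and DUSP10 enzymes that act mainly on p38 and JNK.

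The regions upstream of the start sites are shown for 3 of the genes, as the human DNA in which inducible control of this family is usually described. RefSeq promoter windows of 300 bases on GRCh38.p14 (250 before to 50 after a start) were found for 5 of the 7 measured genes, in 6 windows, with none for DUSP4 and DUSP5. The 250 bases before the start are printed 5′ to 3′ on the gene's strand, with the cyclic AMP response element TGACGTCA (CRE) in capitals. DUSP1 and DUSP8 are shown because they hold this motif, and DUSP6, the ERK-selective enzyme, because it held none of the motifs searched. They lie at chr5:172771196-172771445 (DUSP1), chr11:1572272-1572521 (DUSP8) and chr12:89352502-89352751 (DUSP6), all on the minus strand.
DUSP1: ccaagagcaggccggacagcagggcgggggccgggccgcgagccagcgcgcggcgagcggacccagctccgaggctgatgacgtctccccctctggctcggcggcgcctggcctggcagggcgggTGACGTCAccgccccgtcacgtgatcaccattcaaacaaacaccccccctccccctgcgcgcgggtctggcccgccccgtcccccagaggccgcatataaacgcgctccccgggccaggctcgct
DUSP8: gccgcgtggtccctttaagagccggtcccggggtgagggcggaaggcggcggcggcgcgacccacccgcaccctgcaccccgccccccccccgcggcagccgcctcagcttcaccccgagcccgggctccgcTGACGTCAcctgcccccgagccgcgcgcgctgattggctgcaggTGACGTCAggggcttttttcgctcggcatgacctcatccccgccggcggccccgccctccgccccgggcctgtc
DUSP6: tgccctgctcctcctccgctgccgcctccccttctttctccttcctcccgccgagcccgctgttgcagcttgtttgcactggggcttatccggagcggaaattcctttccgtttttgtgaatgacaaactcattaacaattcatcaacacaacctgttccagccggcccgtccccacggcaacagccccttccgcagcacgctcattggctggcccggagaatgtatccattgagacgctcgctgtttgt

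Both strands of the 300-base windows were searched. The CRE was present once for DUSP1 and at 2 places for DUSP8, and it was found in 1.85% of all 35116 promoter windows. The EGR-type motif GCGGGGGCG was present in the DUSP2 window and in 5.07% of all windows. The AP-1 motif TGANTCA (7.71% of all windows), the ETS motif CCGGAA (17.2%) and the CArG box (1.29%) were in none of the 6 windows. No match overlapped another motif. These matches describe the letters of the human reference only.

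The probes belong to a mouse array by their identifiers, and 1663 probes are named as mouse clone (RIK) genes and 543 as mouse olfactory receptor (OLFR) genes. Each level given here is that of a mouse-designed probe, and how well it reads the human transcript is not known from the files. Median deposited intensity was 77 and 85 in the berberine arrays and 90 and 62 in the control arrays. The 5th percentile of intensity was 27 and 25 with berberine and 30 and 4 in controls, so control 2 had the dimmest low end. The 528 olfactory receptor genes, which served as a reference for background signal, had a median level of 6.05 and a 95th percentile of 9.24 on the log2(intensity + 1) scale after quantile normalization. None of the 7 members had a mean above that percentile, and 3 (DUSP5, DUSP8 and DUSP10) had a mean above the olfactory receptor median. All member signals thus lay in the range of the olfactory receptor genes, as did those of most genes on the array. The labelled cell type was likewise weakly marked. Of 11 hepatocyte markers 9 were measured and 0 had a mean above 9.24, the brightest being ALB at 8.35, while AFP was at 4.75. Of 9 adipocyte, 6 fibroblast and 5 macrophage markers measured, 0 were above it either. The brightest of these were PLIN1 at 8.96 (adipocyte), DCN at 6.88 (fibroblast) and CD14 at 8.80 (macrophage). PLIN1 and CD14 thus read above ALB, the brightest hepatocyte marker.

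**Figure D1:**
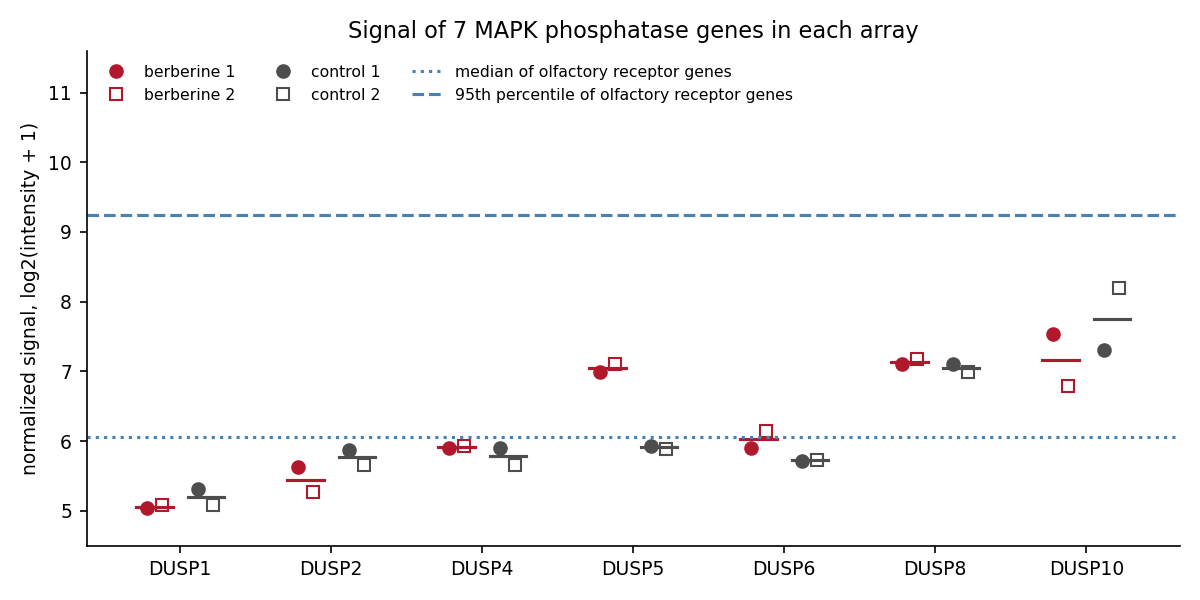
Normalized signal, log2(intensity + 1), of the 7 measured MAPK phosphatase genes in berberine 1 and 2 (red, left of each pair) and control 1 and 2 (grey, right). Horizontal bars are group means of 2 arrays, the olfactory receptor genes have their median at the dotted line and their 95th percentile at the dashed line. DUSP5 has the widest gap between groups, and the 2 arrays of each group differ most for DUSP10.

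Berberine-treated cells were compared with control cells gene by gene. DUSP5, a nuclear phosphatase selective for ERK that also holds ERK in the nucleus, was the member with the smallest p, 2.20-fold higher with berberine. Its control mean of 5.91 lay below the olfactory receptor median of 6.05, so this fold is set against a control signal within background. DUSP6, DUSP4 and DUSP8 were higher and DUSP10, DUSP2 and DUSP1 lower by amounts that did not reach an adjusted p of 0.05 in any setting run. In limma's test across all genes, the main test, 0 of the 7 members passed an adjusted p of 0.05, in a comparison in which 0.0506% of genes (9 of 17778) passed. With an intensity trend in the variance model, called the trend test below, DUSP5 was the 1 member that passed, against 1.46% of all genes in either direction and 0.962% upward. At an unadjusted limma p under 0.05, DUSP5 was again the 1 member, where 13.0% of all genes passed.

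The DUSP5 probe (PH_mM_0006965) gave deposited intensities of 116 and 144 in the berberine arrays, against 71 and 42 in the control arrays. After normalization the log2 levels were 6.99 and 7.11 with berberine and 5.94 and 5.88 in controls. Both berberine values lay above both control values, by more than either group's own spread, in the deposited and in the normalized data. The group means were 7.05 ± 0.08 with berberine and 5.91 ± 0.04 in controls (SD, n = 2 each). The difference was 1.14 on the log2 scale with an SE of 0.114 and a 95% interval of 0.83 to 1.46. Its limma adjusted p was 0.106, and 0.0311 in the trend test. The trend call was lost for values as deposited (limma trend adjusted p = 0.160, SE 0.423). It was also lost when any 1 array was left out, as was the call of every other gene, while the DUSP5 difference ranged from 1.05 to 1.24. Such fits leave 1 array in a group, so this loss says nothing particular to DUSP5. An exact permutation test of 2 arrays against 2 cannot go below p = 0.333, the value DUSP5 reached.

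The other inducible nuclear phosphatases differed by less than DUSP5, with intervals that included 0. DUSP1 (probe mMC015797), known for its fast induction by stress and glucocorticoids and for acting on p38 and JNK as well as ERK, gave deposited intensities of 38 and 37 with berberine and 49 and 14 in controls. The 2 berberine values lay between the 2 control values, and after normalization the groups overlapped as well, at log2 levels of 5.04 and 5.08 with berberine and 5.31 and 5.08 in controls. The difference was -0.13 (95% interval -0.50 to 0.24, limma adjusted p = 0.698), and its sign turned with the scaling, to 0.49 for values as deposited and 0.38 with median centring.

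DUSP2 (probe PH_mM_0004333), a nuclear phosphatase best known from activated lymphocytes, had deposited intensities of 49 and 41 with berberine and 68 and 33 in controls. The log2 levels were 5.63 and 5.27 with berberine and 5.88 and 5.66 in controls, so the normalized groups did not overlap while the deposited values did. The difference was -0.32 (95% interval -0.82 to 0.18, limma adjusted p = 0.533). DUSP4 (probe mMC005797), a nuclear phosphatase that acts on ERK and JNK, had deposited intensities of 59 and 66 with berberine and 69 and 33 in controls. Its log2 levels of 5.91 and 5.92 with berberine lay just above 5.90 and 5.66 in controls, and the difference was 0.14 (95% interval -0.24 to 0.51, limma adjusted p = 0.696). For both genes the interval includes 0, and the 2 control arrays differed by 0.22 for DUSP2 and 0.24 for DUSP4.

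DUSP6 (probe mMC011102), the cytoplasmic phosphatase often used as a transcript readout of ERK activity, gave deposited intensities of 59 and 76 with berberine and 61 and 34 in controls. Its log2 levels were 5.91 and 6.14 with berberine and 5.72 and 5.73 in controls. Both normalized berberine values were the higher ones, with means of 6.03 ± 0.17 with berberine and 5.72 ± 0.0048 in controls (SD, n = 2 each). The difference of 0.30 had a 95% interval of -0.07 to 0.67 and a limma adjusted p of 0.436. The upper end of this interval is below the lower end of the DUSP5 interval, but the difference between the 2 genes was not tested.

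The phosphatases of p38 and JNK were examined next. DUSP8 (probe mMC019371) gave deposited intensities of 126 and 151 with berberine and 156 and 110 in controls, and log2 levels of 7.10 and 7.18 with berberine and 7.10 and 6.99 in controls. Its difference was the smallest of the 7 in size, at 0.10 (95% interval -0.22 to 0.42, limma adjusted p = 0.746), and turned to -0.040 with median centring. DUSP10 (probe mMC018263) gave deposited intensities of 165 and 115 with berberine and 182 and 278 in controls. Its log2 levels of 7.54 and 6.79 with berberine overlapped those of 7.31 and 8.20 in controls. The mean difference of -0.59 (95% interval -1.76 to 0.58, limma adjusted p = 0.596) was smaller than the gap of 0.75 between the berberine arrays and of 0.89 between the control arrays.

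**Figure D2:**
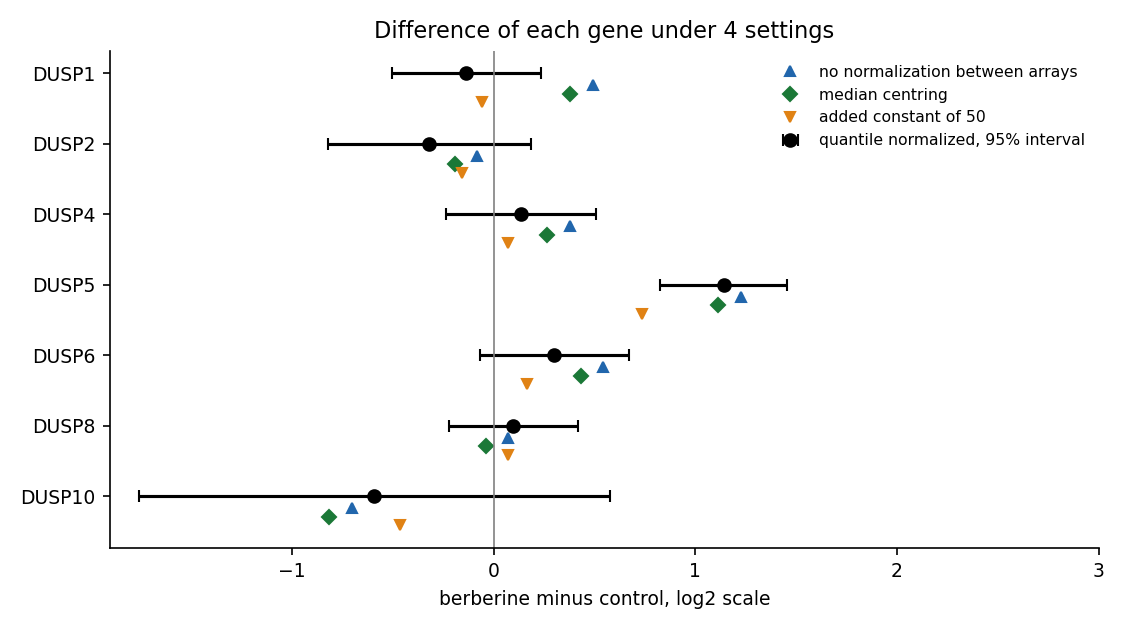
Difference of each gene, berberine minus control on the log2 scale. Black points with bars are the quantile-normalized values with 95% intervals from limma (n = 2 each); blue triangles, green diamonds and orange triangles are unnormalized values, median centring and an added constant of 50. Only the DUSP5 interval lies wholly on one side of 0, and DUSP1 and DUSP8 change sign between settings.

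Over the 7 members the median difference was 0.097, against -0.0091 for all genes. Without normalization it was 0.378 and under median centring 0.265, against 0.079 and -0.034 for all genes. The same 2 settings gave medians of 0.256 and 0.143 for the fibroblast markers. For the other brakes on RAS and receptor signalling described below they gave 0.284 and 0.171, and for the other dual-specificity phosphatases -0.029 and -0.142. The cause of these shifts was not tested. The groups did not overlap for 4 of the 7 members, 3 higher (DUSP4, DUSP5 and DUSP6) and 1 lower (DUSP2), where 45.0% of all genes had groups apart, 21.7% higher and 23.3% lower. In the deposited intensities they did not overlap for 2 of the 7, DUSP5 higher and DUSP10 lower, where 24.1% of all genes had groups apart, 11.4% higher and 12.7% lower. Of the 7, DUSP5 was the 1 apart in both, but the share of all genes apart in both was not counted.

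**Figure D3:**
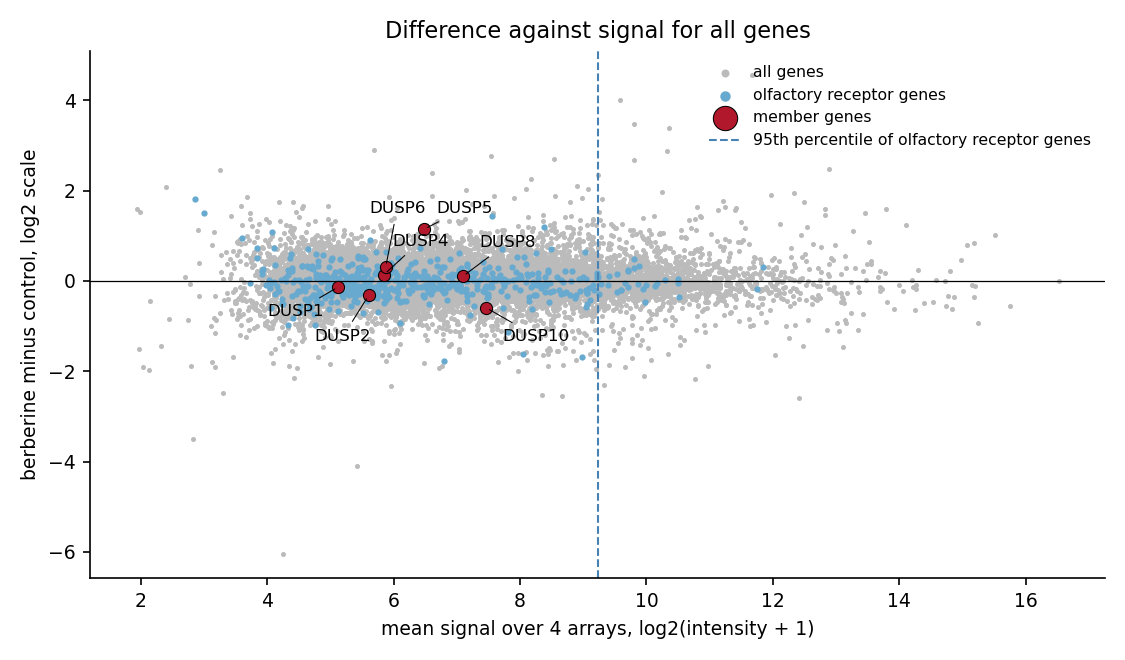
Difference between berberine and control against mean signal over the 4 arrays, both on the log2 scale, for all 17778 genes (grey), the 528 olfactory receptor genes (light blue) and the 7 members (red). The dashed line is the 95th percentile of olfactory receptor levels, 9.24, and all 7 members lie to its left.

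Genes around these phosphatases were taken from 5 lists. Of 15 other dual-specificity phosphatases, all measured, 0 passed either test, 1 had an unadjusted limma p under 0.05, and the median difference was 0.020. Over all genes 1.46% passed the trend test and 13.0% had an unadjusted p under 0.05. That 1 was DUSP22, a small atypical phosphatase, at 0.54 (limma adjusted p = 0.294), and its second probe was at -0.22. DUSP15 was at -0.28 and DUSP18 at 0.24. Of 15 other brakes on RAS and receptor signalling 14 were measured, 0 passed either test and 2 had an unadjusted limma p under 0.05, near the 13.0% of all genes, with a median of 0.087. DAB2IP, a RAS GTPase activating protein, was at -0.78 (limma adjusted p = 0.271), the EGFR inhibitor ERRFI1 at 0.81 (0.374) and PEBP1, which binds RAF, at 0.31 (0.399). The ERRFI1 probe was dim, with deposited intensities of 29 and 28 with berberine and 20 and 3 in controls. SPRED2, a relative of the Sprouty proteins that blocks RAF activation, was the 1 measured brake with a mean above 9.24. It read 11.95 with berberine and 12.13 in controls, a difference of -0.19 (limma adjusted p = 0.559), with a second probe at 0.09.

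The kinases themselves were compared in the same way. Of 17 genes of the ERK cascade 13 were measured, 0 passed either test and 3 had an unadjusted limma p under 0.05, against 13.0% of all genes, with a median of 0.018. SOS2, a RAS exchange factor, was at 0.62, the kinase ARAF at 0.40 and the scaffold KSR1 at 0.35 (limma adjusted p = 0.259, 0.356 and 0.369). MAPK3, which encodes ERK1, had deposited intensities of 11 and 4 with berberine and 11 and -17 in controls, at or near the floor of the scale, and its groups overlapped. Of 14 genes of the p38 and JNK cascades, all measured, 0 passed the main test and 7 had an unadjusted limma p under 0.05 (5 higher, 2 lower), against 13.0% of all genes. MAPK13, which encodes p38 delta, was the 1 that passed the trend test, as 1.46% of all genes did. Its log2 levels were 9.30 and 9.51 with berberine and 8.53 and 8.42 in controls, a difference of 0.93 (limma adjusted p = 0.154, trend 0.0398). The JNK kinase MAP2K4 was at 0.45 and MAPK10, which encodes JNK3, at 0.43. The 2 lower genes were MAP2K7, a JNK kinase with other probes at 0.05 and 0.05, at -0.47 and MAPK9, which encodes JNK2, at -0.34, and the list's median was -0.117.

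Transcripts known to respond to ERK were the list with members past the main test. Of 20 genes 19 were measured, and 2 rose, EGR1 and FOS, both immediate early transcription factors, against 0.0506% of all genes. The list was chosen with earlier results of these data known, so this count is not independent evidence about the list. EGR1 had deposited intensities of 14131 and 15864 with berberine and 823 and 630 in controls, and FOS 194 and 230 with berberine and 51 and 23 in controls. The differences were 4.56 and 2.40 on the log2 scale (limma adjusted p = 0.0354 and 0.0474). Neither passed with median centring (limma adjusted p = 0.168 and 0.265), with 1 row per probe (0.0604 and 0.0790) or with the replicate block (0.321 for both), and FOS did not with values as deposited (0.327). The FOS levels of 7.80 with berberine and 5.41 in controls lay below 9.24. JUNB at 1.21 and IER3 at 1.66 were higher and passed the trend test only, which 1.46% of all genes passed (limma trend adjusted p = 0.0204 and 0.0265), and a second JUNB probe was at 0.10. With any 1 array left out, 0 genes of the whole table passed the main or the trend test, these included, and 1380 to 3100 had an unadjusted limma p under 0.05. The other 15 passed neither, and the list's median was 0.016. Among them were EGR2 at 0.87 and SRF at 0.54 (limma adjusted p = 0.437 and 0.430), with a second SRF probe at 0.15. CCND1, the cyclin D1 gene, was at 0.17. ETV4 at 0.05 and ETV5 at -0.04 encode ETS factors used with DUSP6 as readouts of sustained ERK activity. PHLDA1 was at -0.01, with a second probe at -0.42. Mean levels of EGR2 (4.86) and PHLDA1 (5.51) lay below the olfactory receptor median of 6.05. Those of SRF, CCND1, ETV4 and ETV5 lay between that median and 9.24. In promoter windows of the same size, EGR1 held 2 CArG boxes, and FOS, JUNB and MAPK13 held none of the motifs. Bases further upstream were not searched, so a site there would have been missed.

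**Figure D4:**
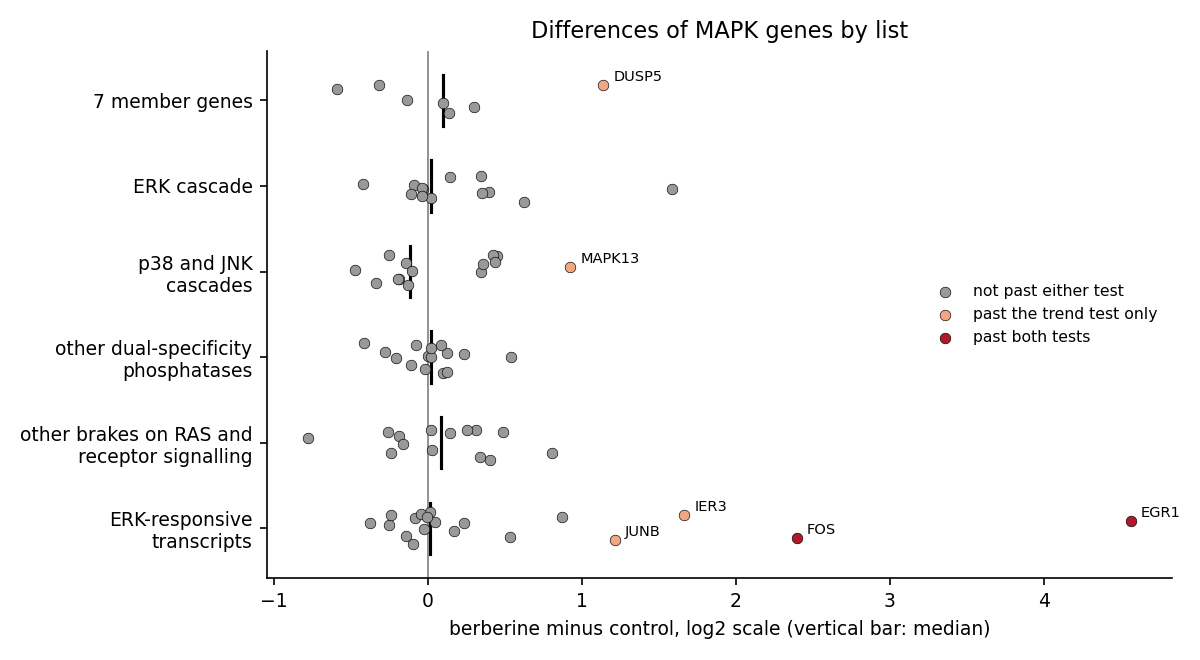
Differences between berberine and control on the log2 scale for the 7 members and 5 lists of MAPK genes, 1 point per gene, with vertical bars at each median. Orange points passed the trend test only (DUSP5, MAPK13, JUNB, IER3) and dark red points both tests (EGR1, FOS). The other genes passed neither, and the rightmost ERK cascade point is MAPK3, which control 2 read at the floor.

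The summed normalized intensity of the measured hepatocyte markers was 996 and 973 with berberine and 1059 and 1002 in controls. It was 978 and 981 with berberine and 1020 and 1087 in controls for adipocyte markers, and 311 and 307 with berberine and 327 and 315 in controls for fibroblast markers. For macrophage markers it was 873 and 822 with berberine and 765 and 701 in controls. In each of these sums the groups lay apart, by little, and no measured marker had a normalized level of 0 in any array. Gene by gene the groups were apart for 0 of 6 fibroblast markers and 1 of 5 macrophage markers, CD14, at 0.40. Of 9 hepatocyte markers 1 was apart and higher and 1 apart and lower. The adipocyte sum joins markers that differed in opposite directions, with 7 of 9 apart (3 higher, 4 lower). Of all genes 45.0% had groups apart. FABP4, a fatty acid binding protein, was at 1.00, the hormone gene RETN at -1.20 and ADIPOQ, the adiponectin gene, at -0.64 (limma adjusted p = 0.143, 0.233 and 0.350). The FABP4 difference was close in size to that of DUSP5. The part of these markers in the DUSP5 difference was not tested. Fewer cells of a type and less RNA per cell cannot be told apart in such samples.

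Genes with a profile like that of DUSP10, the member with the highest mean signal, were looked for among the 1626 genes with means above 9.24. By Euclidean distance between log2 levels centred on each gene's own mean over the 4 arrays, the nearest were ATP2B4, a calcium pump of the plasma membrane, at 0.301, S1PR2, a sphingosine-1-phosphate receptor, at 0.329, and the clone gene E030019B06RIK at 0.382. In all 3 control 2 was the highest array and berberine 2 the lowest, as for DUSP10, and none passed the test between groups.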

How the data were processed

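The authors deposited whole-number intensities, on a linear scale, for 26423 probes, with steps not given in the sources used here. Per the labels' protocols, Cy5-labelled amplified RNA was used. Values below 0 occurred in berberine 1 and 2 (1 and 11 probes) and control 2 (269). Log2 medians of the arrays spanned 0.53, over the 0.2 allowed, so intensities were quantile normalized, floored at 0 and taken as log2(value + 1). Fold changes are on that scale. Those of dim genes depend on the added constant, as for DUSP5 (1.14 with 1 added, 0.73 with 50 added). Of the probes, 20377 had 1 gene symbol and 6046 none. A gene was represented by its probe with the highest mean. The test was limma's (version 3.58.1, under R 4.3.3, lmFit and eBayes, 2-sided, no block, Benjamini-Hochberg over 17778 genes, threshold 0.05, 2 residual degrees of freedom). It was tried on simulated data with changes put only into genes above the median level. That trial therefore does not cover changes in dim genes. Figures used matplotlib 3.10.9. The members and lists were chosen with earlier results of these data known. Named were all members, and in each MAPK list every gene past the main test, or otherwise up to 3 with the smallest p, with any gene past the trend test. MAPK3, MAPK9, MAP2K7, SPRED2, EGR2, SRF, ETV4, ETV5, PHLDA1, CCND1, DUSP13, DUSP16, DUSP27 and the marker genes were named outside that rule, after their values were seen. Alternatives were no normalization, median centring, a pseudocount of 50, a filter that left out the dimmest 30% of genes, eBayes with a trend or robust, probes of a gene averaged, 1 row per probe, the replicate number as a block, and each array left out. The number of arrays limits the precision.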

Additional observations from a re-analysis of the deposited data

How the results depend on the processing

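The differences of DUSP2, DUSP4, DUSP5, DUSP6 and DUSP10 kept their sign in every setting that gave them a value. That of DUSP1 turned to 0.49 as deposited and to 0.38 under median centring, whether the trend was used or not. That of DUSP8 turned to -0.040 under median centring. The cause was not tested. No member but DUSP5 passed a test in any setting. Of the members, 0 passed the main test and 1, DUSP5, passed with the dimmest 30% of genes left out (limma adjusted p = 0.0399), a pseudocount of 50 (0.0316), the intensity trend (0.0311) and the trend with median centring (0.0486), and its adjusted p ranged from 0.0311 to 1.00 over all settings. DUSP1 and DUSP2 were left out by the filter on dim genes. The count over all genes, 9 in the main test, was 2 as deposited, 138 with the filter, 251 with a pseudocount of 50, 260 with the trend (171 higher, 89 lower), 188 with the trend and median centring (59 higher, 129 lower) and 283 with the trend as deposited (99 higher, 184 lower). It was 0 with median centring, each probe as its own row or the replicate block (2247, 3101 and 1878 at an unadjusted limma p under 0.05), and 0 when any array was left out, with or without the trend (1380 to 3100 unadjusted). Of the 75 genes in the 5 MAPK lists, 2 passed the main test, 1 as deposited, 4 with the filter, 5 with a pseudocount of 50, 5 with the trend, 4 with the trend and median centring, 5 with the trend as deposited, and 0 with median centring, each probe as its own row, the replicate block or an array left out. The settings that join the trend with another scaling or a left-out array were chosen after seeing the data. Same-numbered samples deviated with a correlation of 0.090 across genes, in 2 pairs, so the numbers were not taken as pairs, and under the replicate block DUSP5 had a limma adjusted p of 0.327.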

Other observations

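Several dual-specificity phosphatase genes outside the member set had more than 1 probe, and in some of them the probes differed in sign. The 2 DUSP16 probes were at 0.08 (SE 0.157) and -0.12 (SE 0.198), each smaller than its SE. The 2 DUSP22 probes were at 0.54 (SE 0.143) and -0.22 (SE 0.146). Both DUSP15 probes were lower with berberine, at -0.28 and -0.15. DUSP13, a phosphatase known from muscle and testis, had 3 probes, all lower with berberine, at -0.26, -0.51 and -0.02. The 2 DUSP27 probes were at 0.07 (SE 0.111) and -0.09 (SE 0.127), again each smaller than its SE. DUSP13 and DUSP27 were chosen after the lists were made. With each probe as its own row, limma adjusted p-values of these probes were 0.316 or higher. Each measured member had 1 probe, so no such comparison was possible for DUSP5.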
